A study of Homo sapiens with 6 samples.

Results

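The insulin-like growth factor (IGF) axis was followed through 10 genes in vector control (VC) and CNTNAP4 knockout (KO) cells of the human osteosarcoma line 143B. They are the ligand gene IGF2, the receptor genes IGF1R, INSR and IGF2R, the receptor substrate genes IRS1 and IRS2, and the binding protein genes IGFBP3, IGFBP4, IGFBP5 and IGFBP6. The members were taken by gene symbol, and all 10 were found among the 54308 genes of the deposited table. IGF2 is a secreted growth factor made in quantity by fetal and mesenchymal tissue and by many sarcomas. It signals through the IGF1R tyrosine kinase and through an isoform of the insulin receptor, and IRS1 and IRS2 dock on the active receptors and carry the signal to PI3K, AKT and RAS. IGF2R binds IGF2 and delivers it to lysosomes, and the IGFBPs hold IGFs in the extracellular space, where proteases can set them free. In bone, IGFs and their binding proteins are stored in the matrix and act on osteoblast growth.

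VC cells were 143B cells transfected with a control plasmid, and KO cells were 143B cells transfected with a CRISPR/Cas9 plasmid against CNTNAP4, with 48 h of transfection given in the labels for each group. The methods differ from the labels in giving a longer incubation, after which RFP-positive single cells were sorted and grown as clones. They also state that RNA of each kind was prepared 3 times from clonal cells. The sources do not say which clones the RNA came from, so the deletion and differences between clones cannot be told apart, and p-values measure only the spread between these samples. All cells grew in medium with 15% fetal bovine serum, and serum itself carries IGFs. Values are log2 signals that the authors had already quantile-normalized, and log2 fold changes are given as KO relative to VC. A gene was called when its adjusted p was under 0.05 in limma's moderated linear model over 19306 genes, those with 2 or more values per group (two-sided, Benjamini-Hochberg over all of them). Read depth is unknown, the linear unit under the log2 scale is not named, and signals are therefore not compared between genes.

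CNTNAP4 had a log2 signal of -7.18 in VC replicate 3 and an empty cell in the other 5 libraries, so the deleted gene has no fold change here. The mesenchymal genes VIM, FN1, SPARC, COL1A1, RUNX2 and ALPL had values in all libraries, and FN1, SPARC, COL1A1 and ALPL were called higher in KO. COL1A2 also had values in all libraries, with means of -4.81 in VC and -5.62 in KO, and was called lower in KO (adjusted p = 0.0161). Of the osteoblast genes, SP7 had values in 4 of 6 libraries (means of -7.09 and -7.14), BGLAP in 2 KO libraries only and IBSP in none. The epithelial marker EPCAM was also listed, at 1.71 in VC and 1.04 in KO as means, and was called lower (adjusted p = 0.0157). The other epithelial markers listed were CDH1, KRT5 and KRT19. CDH1 had a value in VC replicate 2 alone (-8.04), and KRT5 had values in VC libraries only, the highest at -5.34. KRT19 had means of -4.46 in VC and -3.45 in KO, with groups that overlapped. Blood and endothelial markers had group means under -4 or missing values. KO libraries were less alike than VC libraries. The SD of KO exceeded that of VC in 70.2% of genes with 6 values and in 8 of the 10 IGF axis genes. Where the groups did not overlap, KO replicate 1 was the KO library nearest the VC mean in 71.5% of genes and KO replicate 2 the farthest in 71.9%.

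Of the 10 IGF axis genes, 6 were called, 2 of them higher in KO (IGFBP3 and IGF2R) and 4 lower (IRS1, IGFBP4, IRS2 and IGF2). Over all genes tested 32.9% were called, 13.1% as higher and 19.8% as lower. The groups did not overlap in 9 of the 10 genes, where the share over all genes with 6 values was 59.3%. KO was above VC in 2 of them and below in 7, against 22.6% and 36.7% of all genes. IGFBP3 and IRS1 were called with a change of at least 2-fold, as were 9.53% of all genes tested. Among these 9 genes KO replicate 1 lay nearest to VC in 7 and KO replicate 2 lay farthest in 8. The median log2 fold change of the 10 genes was -0.42, and that of all genes tested was -0.13. All 10 genes had a value in each library, and 7 of them lay in the upper 50% of mean signal, where 39.2% of genes were called. A fit to that upper part alone called 6 of the 7, and 59.1% of its genes. INSR, IRS2 and IGFBP5 lay in the lower 50%, where 26.6% were called. In the upper 50% of mean signal, the chromosomes that carry the 10 genes had median log2 fold changes between -0.15 (chromosome 7, with IGFBP3) and -0.0088 (chromosome 6, with IGF2R).

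**Figure D1:**
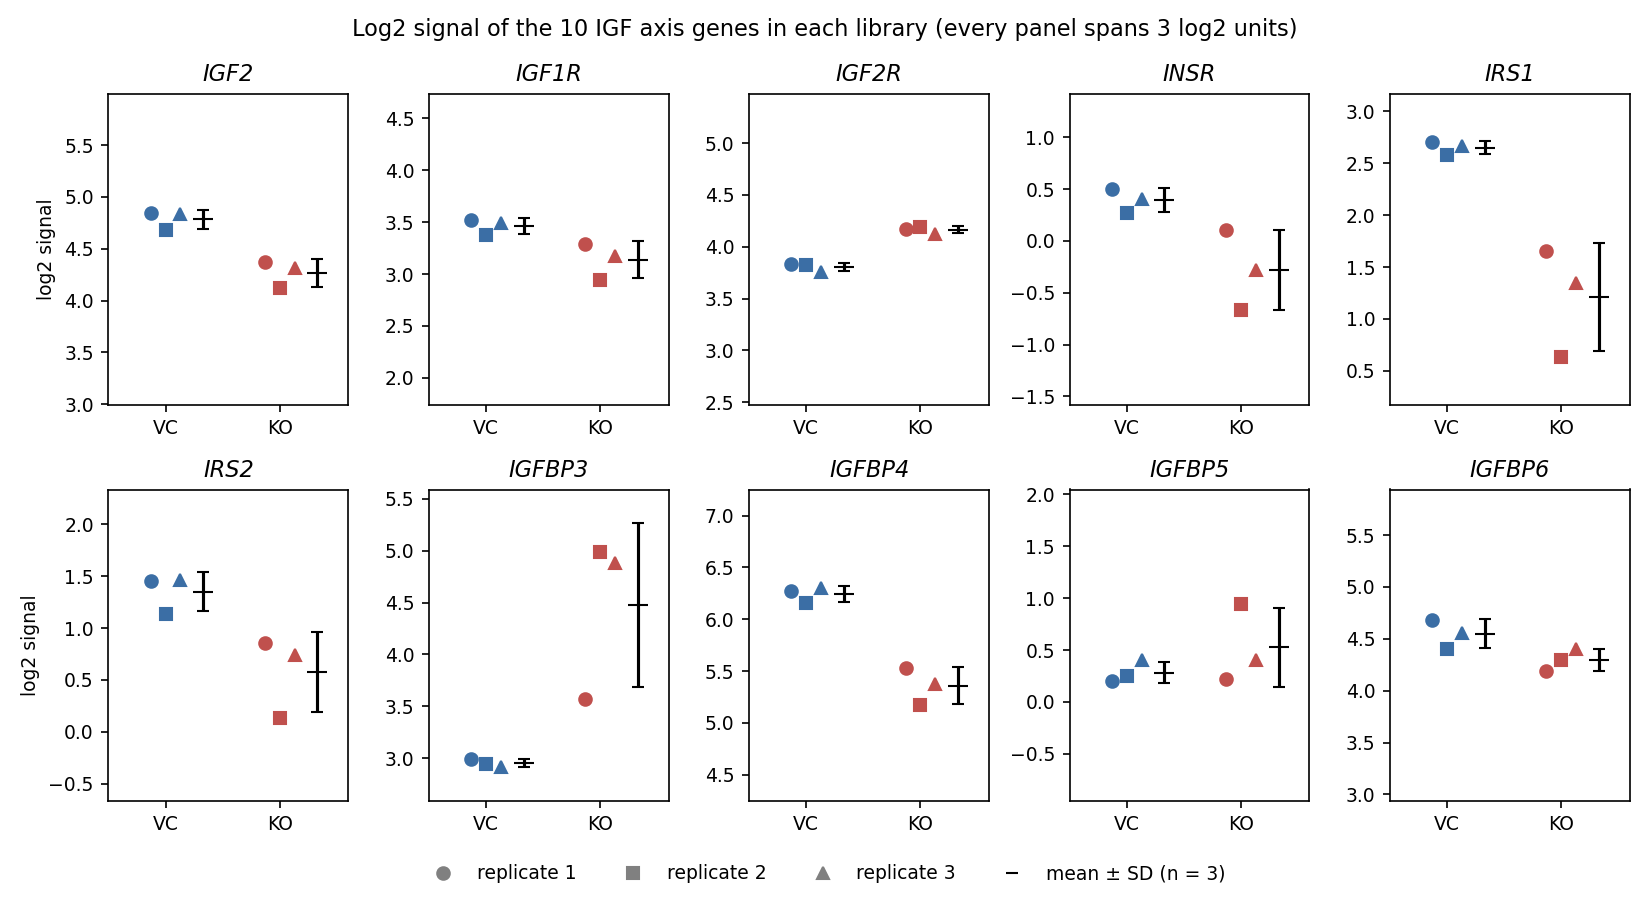
Log2 signals of the 10 IGF axis genes, with 1 panel per gene, every panel spanning 3 log2 units, blue points for the 3 VC libraries and red points for the 3 KO libraries. The point shape gives the replicate, and the bar beside each group is the mean ± SD (n = 3). IGFBP3 and IGF2R lie higher in every KO library, IGFBP5 overlaps, and the other genes lie lower, with the widest KO spread in IGFBP3 and IRS1.

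The promoter sequence of each of 4 genes with the largest called changes is shown to place these genes in the genome. RefSeq windows (GRCh38.p14) were found for 9 of the 10 genes and not for IGF2. Each sequence gives the 250 bases before the annotated start, 5′ to 3′ on the strand of the gene. Capitals mark the GC box GGGCGG, a site of SP1-type factors, and the TATA element TATAAA, on either strand and with overlaps counted. IRS1 is at chr2:226799821-226800070 and IRS2 at chr13:109786584-109786833, both on the minus strand. IGFBP3 is at chr7:45921273-45921522 on the minus strand, and IGFBP4 at chr17:40443200-40443449 on the plus strand.
IRS1: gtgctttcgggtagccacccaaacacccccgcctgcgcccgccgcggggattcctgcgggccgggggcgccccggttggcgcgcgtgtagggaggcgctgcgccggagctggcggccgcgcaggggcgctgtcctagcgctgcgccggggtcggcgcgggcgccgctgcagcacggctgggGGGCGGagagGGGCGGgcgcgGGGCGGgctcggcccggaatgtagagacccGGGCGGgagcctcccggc
IRS2: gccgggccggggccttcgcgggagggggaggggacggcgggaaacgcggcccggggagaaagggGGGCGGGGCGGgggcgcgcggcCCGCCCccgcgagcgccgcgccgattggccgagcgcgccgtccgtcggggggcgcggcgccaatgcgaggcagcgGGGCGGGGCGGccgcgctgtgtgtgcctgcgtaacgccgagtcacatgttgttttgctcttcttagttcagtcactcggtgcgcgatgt
IGFBP3: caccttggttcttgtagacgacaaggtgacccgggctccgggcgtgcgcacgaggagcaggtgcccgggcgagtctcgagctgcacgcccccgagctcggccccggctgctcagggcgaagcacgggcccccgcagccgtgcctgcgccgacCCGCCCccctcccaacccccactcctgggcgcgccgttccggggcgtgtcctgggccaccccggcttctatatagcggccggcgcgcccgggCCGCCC
IGFBP4: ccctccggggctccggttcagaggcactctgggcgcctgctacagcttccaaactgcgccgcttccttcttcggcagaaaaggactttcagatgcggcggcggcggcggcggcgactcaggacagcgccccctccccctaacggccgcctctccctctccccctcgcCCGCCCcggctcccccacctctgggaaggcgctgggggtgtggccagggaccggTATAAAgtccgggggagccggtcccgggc
The GC box occurred 4 times before IRS1, 5 times before IRS2, 2 times before IGFBP3 and 1 time before IGFBP4, and 42.6% of 35116 RefSeq windows of the same length held at least 1. TATAAA was found before IGFBP4 and in none of the other 3, and 10.7% of all windows held it. The FOXO motif TGTTTAC was absent from these 4 windows and present in 2.98% of all windows. The AP-1 motif TGACTCA was likewise absent, and 4.20% of windows held it. Only exact matches of the strings named were counted, so absence of a string does not exclude variant forms of the site. The G+C content was 80.8%, 76.4%, 76.0% and 71.6% in the order printed.

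IGF2, the ligand of the axis, fell in KO. Its log2 signals were 4.84, 4.68 and 4.83 in VC and 4.38, 4.12 and 4.31 in KO, here and elsewhere in the order of replicates 1, 2 and 3. Every KO library was under every VC library, and in bulk RNA fewer cells with the transcript and less transcript per cell cannot be told apart. The mean went from 4.78 ± 0.090 to 4.27 ± 0.13 (SD, n = 3), a log2 fold change of -0.52 (standard error, SE, of 0.10 and adjusted p = 0.0202) or 70.0% of VC on the linear scale. The call was lost without VC replicate 1, VC replicate 3 or KO replicate 3 (adjusted p = 0.0738, 0.0751 and 0.0606). The antisense transcript IGF2-AS, read from the opposite strand of the locus, had log2 signals of -0.59, -1.17 and -0.36 in VC and -0.41, -0.09 and 0.05 in KO, with groups that overlapped (log2 fold change 0.55, adjusted p = 0.136). That change was 0.32 without VC replicate 2 and 0.23 on the log2(signal + 1) scale. The readthrough gene INS-IGF2, which shares exons with IGF2, was listed in KO replicate 2 alone. The library kit keeps strand, but the strand setting of the counting is not given in the sources used here, so the division of reads between IGF2 and its overlapping genes is uncertain.

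The signaling receptors IGF1R and INSR had lower means in KO and were not called. IGF1R had log2 signals of 3.52, 3.38 and 3.49 in VC and 3.29, 2.94 and 3.17 in KO. The groups did not overlap, and KO replicate 1 was the KO library nearest to VC. The log2 fold change was -0.33 (95% interval -0.61 to -0.04, adjusted p = 0.0768). INSR, the insulin receptor, had 0.50, 0.27 and 0.41 in VC and 0.10, -0.66 and -0.28 in KO, again without overlap. Its log2 fold change was -0.67 (95% interval -1.19 to -0.15, adjusted p = 0.0583). Without KO replicate 1, the adjusted p was 0.0351 for IGF1R and 0.0144 for INSR, and moderation with trend and robust estimation gave 0.0333 and 0.0306. Each was called in 1 of 6 leave-one-out fits. The highest adjusted p was 0.1926 for IGF1R and 0.1494 for INSR, both without VC replicate 1. Of the other alternative fits, 3 of 8 called IGF1R and 2 of 7 called INSR. Median-centring gave 0.1016 for IGF1R and 0.0593 for INSR. The log2(signal + 1) scale, in which 1 is added before taking logs, gave 0.0489 for IGF1R, and for INSR 0.0411 with a log2 fold change of -0.33.

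IGF2R, the clearance receptor of IGF2, rose in KO. Its log2 signals were 3.83, 3.82 and 3.76 in VC and 4.17, 4.19 and 4.13 in KO. The gap between the groups was larger than the range within either, and the KO SD was the smallest of the 10 genes. The mean went from 3.80 ± 0.042 to 4.16 ± 0.034 (SD, n = 3), a log2 fold change of 0.36 (SE 0.066 and adjusted p = 0.0179) or 1.28-fold. The call was lost without VC replicates 1, 2 or 3 or KO replicate 3 (adjusted p = 0.0650, 0.0519, 0.0761 and 0.0565), while the log2 fold change stayed between 0.34 and 0.38. The antisense gene AIRN, which overlaps IGF2R, had no value in any library.

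IRS1 and IRS2, the docking proteins of the insulin and IGF1 receptors, fell in KO. IRS1 had log2 signals of 2.70, 2.58 and 2.67 in VC and 1.65, 0.63 and 1.34 in KO. The VC libraries lay close together, and the KO libraries were widely spread, all under VC. The mean went from 2.65 ± 0.063 to 1.21 ± 0.52 (SD, n = 3), a log2 fold change of -1.44 (SE 0.27 and adjusted p = 0.0188), or 36.8% of VC on the linear scale. For IRS1 the call was lost without VC replicates 1, 2 or 3 or KO replicate 3 (adjusted p = 0.0642, 0.0565, 0.0653 and 0.0554). The size of the IRS1 change lay between -1.66 and -1.15 with any library left out.

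IRS2 had log2 signals of 1.45, 1.13 and 1.46 in VC and 0.85, 0.13 and 0.74 in KO. The lowest VC library was VC replicate 2 and the lowest KO library KO replicate 2, and the groups did not overlap. The log2 fold change was -0.77 (SE 0.22 and adjusted p = 0.0492), or 58.5% of VC. This adjusted p lay at the threshold. It was 0.0351 without KO replicate 1, between 0.0526 and 0.130 with any other library left out, 0.0517 with median-centred libraries, 0.0566 after a further quantile normalization and 0.0895 without variance moderation. On the log2(signal + 1) scale the change was -0.50 (adjusted p = 0.0340).

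The IGFBPs moved in different directions. IGFBP3, the main carrier of IGFs in serum and a binding protein with growth-inhibiting roles of its own, rose. Its log2 signals were 2.99, 2.94 and 2.92 in VC and 3.57, 4.98 and 4.89 in KO. KO replicate 1 stood above the VC libraries, and KO replicates 2 and 3 stood much farther above them. The mean went from 2.95 ± 0.038 to 4.48 ± 0.79 (SD, n = 3), a log2 fold change of 1.53 (SE 0.40 and adjusted p = 0.0387), or 2.89-fold. The KO SD was 20.7 times the VC SD, the largest ratio of the 10 genes. The IGFBP3 call held in 1 of 6 leave-one-out fits, the one without KO replicate 1 (log2 fold change 1.98, adjusted p = 0.00357). In the other 5 fits the adjusted p was between 0.0916 and 0.104, and it was 0.0780 without variance moderation.

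IGFBP4, an IGF-binding protein that mainly restrains IGF action in bone, fell. Its log2 signals were 6.28, 6.16 and 6.30 in VC and 5.53, 5.18 and 5.38 in KO, and the KO libraries lay well under the VC libraries. The mean went from 6.25 ± 0.078 to 5.36 ± 0.18 (SD, n = 3), a log2 fold change of -0.89 (SE 0.11 and adjusted p = 0.0101), or 54.1% of VC. IGFBP4 was the 1 gene of the 10 whose call held in all 6 leave-one-out fits (adjusted p at most 0.0463) and in all 8 other alternative fits.

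IGFBP5, a binding protein abundant in bone matrix, had log2 signals of 0.20, 0.25 and 0.40 in VC and 0.22, 0.95 and 0.41 in KO. Only KO replicate 2 stood apart, and the log2 fold change of 0.24 (95% interval -0.27 to 0.76, adjusted p = 0.388) was 0.03 without it. IGFBP6, which prefers IGF2 over IGF1, had 4.68, 4.40 and 4.56 in VC and 4.19, 4.30 and 4.40 in KO. The highest KO value lay barely under the lowest VC value. The log2 fold change was -0.25 (95% interval -0.52 to 0.02, adjusted p = 0.120).

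**Figure D2:**
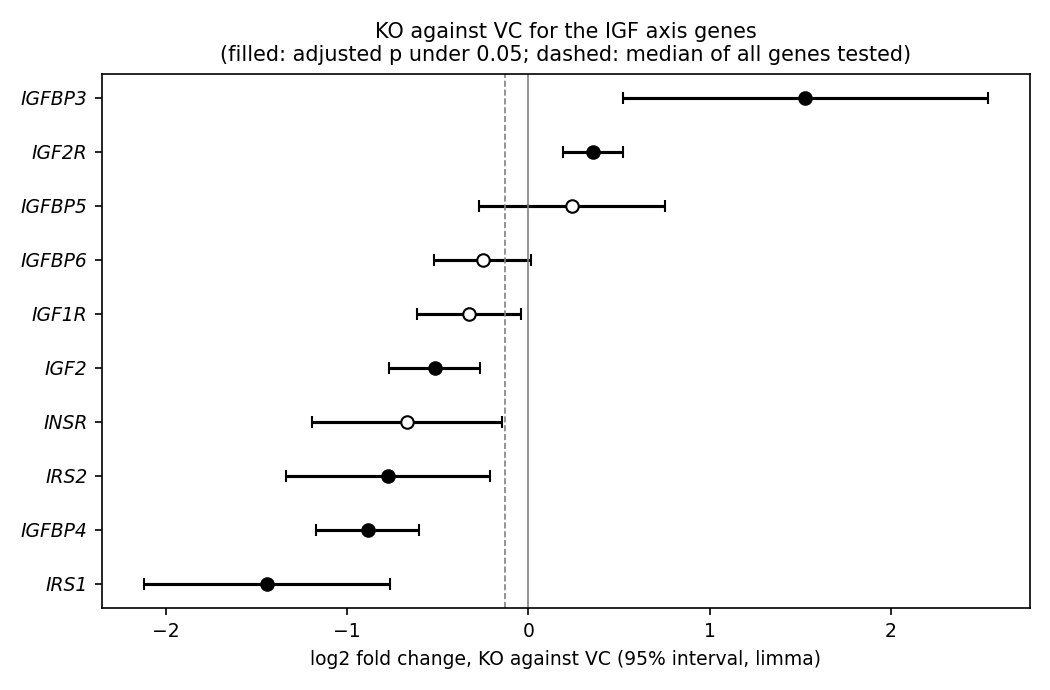
Log2 fold change of KO against VC for the 10 IGF axis genes with its 95% interval from limma (3 libraries per group). Filled points have an adjusted p under 0.05 and the dashed line is the median of all genes tested (-0.13). IGFBP3 and IGF2R lie to the right of 0, and IRS1, IGFBP4, IRS2 and IGF2 lie to the left as called genes.

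**Figure D3:**
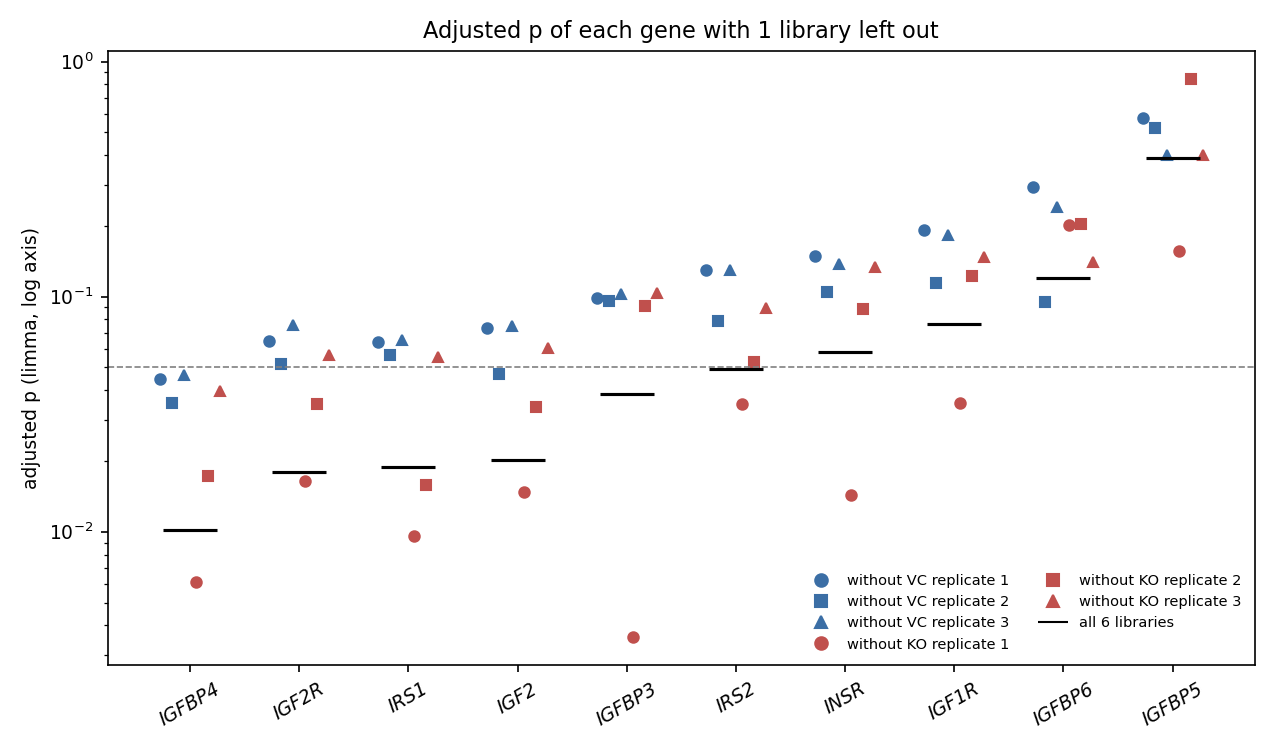
Adjusted p of each IGF axis gene on a log axis when 1 library was left out, with VC libraries in blue, KO libraries in red, the shape giving the replicate, the black bar the value from all 6 libraries and the dashed line 0.05. IGFBP4 stays under the line with any library left out, and removal of KO replicate 1 gave the lowest value for each of the 10 genes except IGFBP6.

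Unequal change within the axis was read from the difference of the log2 signals of 2 genes in the same library, in which any scale particular to a gene cancels between groups. For IRS2 minus IRS1, the difference was -1.30 ± 0.13 in VC and -0.63 ± 0.15 in KO (SD, n = 3), a change of 0.67. For IGF1R minus INSR it went from 3.07 ± 0.043 to 3.42 ± 0.21 (SD, n = 3), a change of 0.35. For IGF2R minus IGF2, the clearance receptor and the ligand, it went from -0.98 ± 0.11 to -0.10 ± 0.15 (SD, n = 3), a change of 0.87. IGF2R was higher and IGF2 lower in every KO library, so the groups could not overlap in this pair. Its test therefore adds nothing to the values of the single genes. IGFBP3 minus IGFBP5 changed by 1.29, from 2.67 ± 0.14 to 3.95 ± 0.57 (SD, n = 3). IGFBP4 minus IGFBP6 changed by -0.63, from 1.70 ± 0.090 to 1.06 ± 0.24 (SD, n = 3). On the log2 scale as deposited, the KO and VC libraries did not overlap in any of the 5 pairs, and each had p = 0.1 in a two-sided exact permutation test (adjusted p = 0.1 over the 5 pairs), the smallest that 3 against 3 allow. On the log2(signal + 1) scale the change in IGF1R minus INSR was 0.04 and the groups overlapped (exact permutation p = 0.2).

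**Figure D4:**
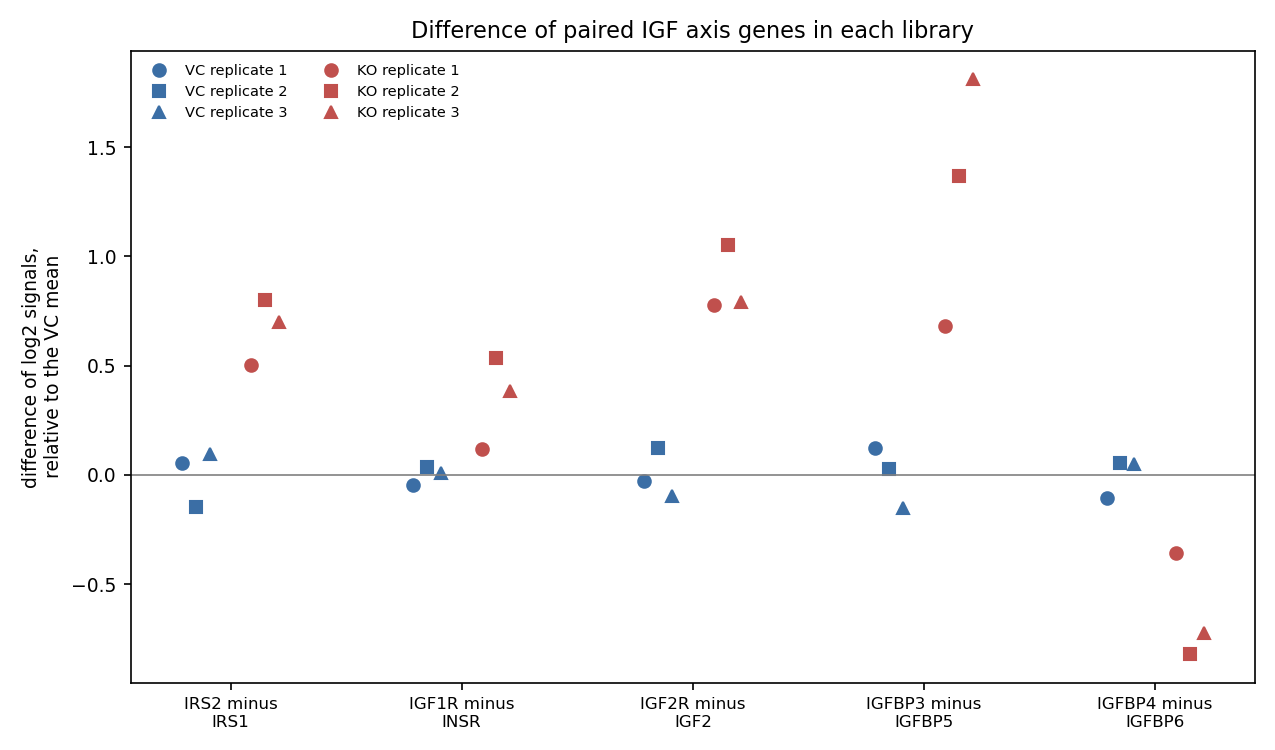
Difference of the log2 signals of 2 IGF axis genes in each library, relative to the mean of the 3 VC libraries, for 5 pairs of genes. The KO points (red) lie on 1 side of the VC points (blue) in every pair, with changes of 0.67, 0.35, 0.87, 1.29 and -0.63 from left to right.

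The genes whose pattern was most like that of IGFBP3 were sought by Pearson's r over the 6 libraries among 9652 other genes with 6 values and a mean in the upper 50%. They were PRKCD (r = 0.999), which encodes a protein kinase C, WARS (r = 0.999), the tryptophanyl-tRNA synthetase gene, and PDIA6 (r = 0.999), which encodes a disulfide isomerase of the endoplasmic reticulum. Each had VC libraries close together, KO replicate 1 above them and KO replicates 2 and 3 higher still, as with 6.17, 7.11 and 6.99 in KO and 5.80 to 5.81 in VC for WARS. As many as 665 of the genes had r above 0.95 with IGFBP3. The points share the split into VC and KO, so the coefficients are a description.

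Beyond these 10 genes, 75 further genes of the pathway were arranged in 6 lists by role, of which 70 could be tested. In all, 15 were called higher and 20 lower in KO, or 35 of 70, beside 32.9% of all genes tested (13.1% higher and 19.8% lower). In a fit to the upper 50% of mean signal alone, 25 of the listed genes were called, and 59.1% of all genes in that fit. The median log2 fold change over the 70 genes was -0.08, beside -0.13 over all genes tested. Without VC replicate 1 or VC replicate 3 only 2 of the 70 genes were called lower, and without VC replicate 3 there were 8 called higher. The lists were chosen with earlier results of these data known, so their counts are a description. They were not compared with other genes by a test. The count in each list below is to be read beside these shares of all genes.

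All 6 genes of the list of IGFBP proteases and stanniocalcins were called, 4 higher and 2 lower, beside 32.9% of all genes tested. The median log2 fold change of this list, chosen with earlier results known, was 1.14. STC1, a secreted inhibitor of PAPPA, had log2 signals of 2.89, 2.86 and 2.91 in VC and 5.72, 6.33 and 5.74 in KO, a log2 fold change of 3.05 (SE 0.18 and adjusted p = 0.00478) or 8.26-fold. PAPPA, the metalloproteinase that frees IGFs from IGFBP4, had 0.03, -0.29 and 0.03 in VC and 1.27, 1.82 and 1.41 in KO (log2 fold change 1.58, adjusted p = 0.00901). The KO libraries of STC1 and PAPPA stood well apart from the VC libraries. IGFBP4 was lower in the same KO libraries, and a link between these RNA signals was not tested. PAPPA2 (1.27, adjusted p = 0.0224) and STC2 (1.01, adjusted p = 0.0202) were also higher, as log2 fold changes. HTRA1, a serine protease that cleaves IGFBP5, fell by 0.80 (adjusted p = 0.00847), and ADAM12, a metalloproteinase that cleaves IGFBP3 and IGFBP5, by 1.61 in log2 units (adjusted p = 0.0177). The calls of STC1, PAPPA and HTRA1 held with any library left out, and those of ADAM12, PAPPA2 and STC2 did not (2, 2 and 3 of 6 leave-one-out fits, with highest adjusted p of 0.0640, 0.0743 and 0.0704, each when VC replicate 3 was removed). On the log2(signal + 1) scale the change was 0.15 for PAPPA2, 0.98 for PAPPA, -0.52 for HTRA1 and -0.50 for ADAM12.

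Among the other members of the IGF family, 1 of 4 tested genes was called, and the median log2 fold change was 0.33. That median counts INSRR, which had no value in VC replicate 2 and means of -7.68 in VC and -7.02 in KO. INSRR was not called (log2 fold change 0.66, adjusted p = 0.252). IGFBP2 fell by 0.43 in log2 units (adjusted p = 0.0342), and its call held in 2 of 6 leave-one-out fits (highest adjusted p 0.105, without VC replicate 3). IGFBP1, the neighbour of IGFBP3 on chromosome 7, had log2 signals of -0.81, -0.70 and -0.66 in VC and -0.63, 0.12 and 0.24 in KO (log2 fold change 0.64, adjusted p = 0.0981). KO replicates 2 and 3 were again the higher ones, and without KO replicate 1 the adjusted p was 0.00571. That was 1 of 6 leave-one-out fits in which IGFBP1 was called, and the highest adjusted p was 0.2285 (without KO replicate 2). The log2 fold change of IGFBP7 was 0.03 (adjusted p = 0.920), and its sign turned without VC replicate 2, KO replicate 2 or KO replicate 3. The second ligand of the receptor, IGF1, had a value in 1 KO library alone, and INS and IRS4 had none. IGFALS, which encodes the subunit that keeps IGFBP3 complexes in the circulation, had log2 signals of -5.44, -7.00 and -7.00 in KO and empty cells in VC.

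In the list of IGF2 mRNA-binding proteins and of factors and neighbours of IGF2, 1 of 8 tested genes was higher and 1 lower, with a median log2 fold change of -0.02. IGF2BP3, an oncofetal protein that binds IGF2 mRNA, had log2 signals of 4.78, 4.93 and 4.80 in VC and 5.67, 5.92 and 5.82 in KO. Its log2 fold change was 0.97 (SE 0.094 and adjusted p = 0.00789), and the call held with any library left out. The paralogues differed from it, with log2 fold changes of -0.28 for IGF2BP1 (adjusted p = 0.102) and 0.11 for IGF2BP2 (adjusted p = 0.239). IGF2BP1 passed the threshold without KO replicate 1 (0.0240), in the upper 50% of mean signal (0.0396) and with trend and robust moderation (0.0451). It was called in 1 of 6 leave-one-out fits, with a highest adjusted p of 0.2155 (without VC replicate 1). IGF2BP2 passed it on the log2(signal + 1) scale (0.0313) and without variance moderation (0.0488), and its change was 0.19 after median-centring. PLAG1, a zinc-finger activator of IGF2, fell by 0.48 (adjusted p = 0.0260), a call that held in 2 of 6 leave-one-out fits and was lost without VC replicates 1, 2 or 3 or KO replicate 3 (0.0668, 0.0714, 0.0799 and 0.0675). The imprinted neighbour H19 had values in 4 of 6 libraries and a log2 fold change of -0.03 (adjusted p = 0.975).

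Of 16 adapters and inhibitors at the receptors, 1 was higher and 5 were lower, with a median log2 fold change of -0.09. ENPP1, a membrane protein that inhibits the insulin receptor and makes pyrophosphate in bone, had log2 signals of 1.17, 0.96 and 1.10 in VC and 2.05, 3.14 and 3.02 in KO (log2 fold change 1.66, adjusted p = 0.0184). KO replicate 1 was the lowest of the KO libraries, as in IGFBP3. SOS1, the exchange factor that couples GRB2 to RAS, fell by 0.98 (adjusted p = 0.0307), and the docking protein gene GAB1 fell by 0.71 (adjusted p = 0.0317). GRB2 itself fell by 0.31 (adjusted p = 0.0442). The phosphatase genes PTPRF and PTPN1, whose products dephosphorylate the insulin receptor, fell by 0.67 (adjusted p = 0.0165) and 0.34 (adjusted p = 0.0240). These 6 calls held in 1 to 3 of 6 leave-one-out fits, and the highest adjusted p was 0.0636 for ENPP1 (without VC replicate 3), 0.0864 for SOS1 (without VC replicate 3), 0.0954 for GAB1 (without VC replicate 1), 0.126 for GRB2 (without VC replicate 1), 0.0640 for PTPRF (without VC replicate 3) and 0.0896 for PTPN1 (without VC replicate 3). For GAB1 the log2 fold change was -0.20 on the log2(signal + 1) scale, and the GRB2 call was lost after median-centring (adjusted p = 0.0699).

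In the PI3K-AKT relay, 3 of 24 genes were higher and 8 lower, with a median log2 fold change of -0.16. TRIB3, a pseudokinase that binds AKT and is induced by stress, had log2 signals of 3.26, 3.03 and 3.23 in VC and 5.09, 5.95 and 5.41 in KO (log2 fold change 2.31 with SE 0.23 and adjusted p = 0.00815). PIK3CD, a catalytic subunit of PI3K, rose by 0.94 (adjusted p = 0.0110) and FOXO4, a transcription factor that AKT restrains, by 0.66 (adjusted p = 0.0125). The calls of TRIB3 and PIK3CD held with any library left out, and FOXO4 had 0.0530 without VC replicate 3 and a log2 fold change of 0.29 on the log2(signal + 1) scale. The regulatory subunit gene PIK3R1, whose product binds IRS proteins, fell by 0.59 (adjusted p = 0.0286). PIK3R3, which encodes another such subunit, was not called, with log2 signals of -0.30, -0.26 and -0.41 in VC and -1.002, -3.17 and -1.70 in KO (log2 fold change -1.63, adjusted p = 0.0730). The PIK3R3 change was -2.11 without KO replicate 1 (adjusted p = 0.0251), -1.02 without KO replicate 2 (0.0445) and -0.47 on the log2(signal + 1) scale (0.0255), and trend and robust moderation gave an adjusted p of 0.0314. PIK3R3 was called in 2 of 6 leave-one-out fits, with a highest adjusted p of 0.1574 (without VC replicate 1). The phosphatase genes PHLPP1 and PHLPP2, whose products act on AKT, fell by 0.81 (adjusted p = 0.0304) and 0.96 (adjusted p = 0.0181). The other lower genes were GSK3B, AKT1, TSC1, TSC2 and PIK3CB, with log2 fold changes between -0.61 and -0.28. The PIK3CB call was lost after median-centring (adjusted p = 0.124) and after a further quantile normalization (0.0626). The calls of the 8 lower genes held in 1 to 4 of 6 leave-one-out fits, and the highest adjusted p of these genes lay between 0.0576 (AKT1, without VC replicate 3) and 0.126 (PIK3CB, without VC replicate 3).

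Of 12 genes known as FOXO targets, which insulin and IGF signals repress through AKT in many cells, 6 were higher, 3 lower and 3 not called, with a median log2 fold change of 0.39. The cell-cycle gene CCNG2 had log2 signals of 0.11, -0.11 and 0.11 in VC and 1.28, 2.12 and 1.62 in KO (log2 fold change 1.64, adjusted p = 0.0115). KLHL24, which encodes an adapter of a ubiquitin ligase, rose by 1.68 (adjusted p = 0.0110), and PIK3IP1, an inhibitor of PI3K, by 1.54 (adjusted p = 0.00571). FBXO32, CITED2 and CDKN1B had log2 fold changes of 0.79, 0.63 and 0.39 and were called. In the other direction, SESN3 fell by 0.82 (adjusted p = 0.00820), BCL2L11 by 0.78 (adjusted p = 0.0312) and SESN1 by 0.67 (adjusted p = 0.0297). The list thus held genes that moved in either direction, and the activity of FOXO factors was not tested. The calls of CCNG2, KLHL24, PIK3IP1 and SESN3 held with any library left out, and that of FBXO32 was lost without VC replicate 3 alone (0.0517). The calls of CITED2, CDKN1B, SESN1 and BCL2L11 each held in 2 of 6 leave-one-out fits, those without KO replicate 1 or KO replicate 2, with highest adjusted p of 0.0817, 0.0692, 0.0920 and 0.0920. On the log2(signal + 1) scale the change was 0.24 for PIK3IP1, 0.80 for KLHL24, 1.05 for CCNG2, -0.49 for BCL2L11, -0.38 for SESN1 and -0.18 for SESN3.

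**Figure D5:**
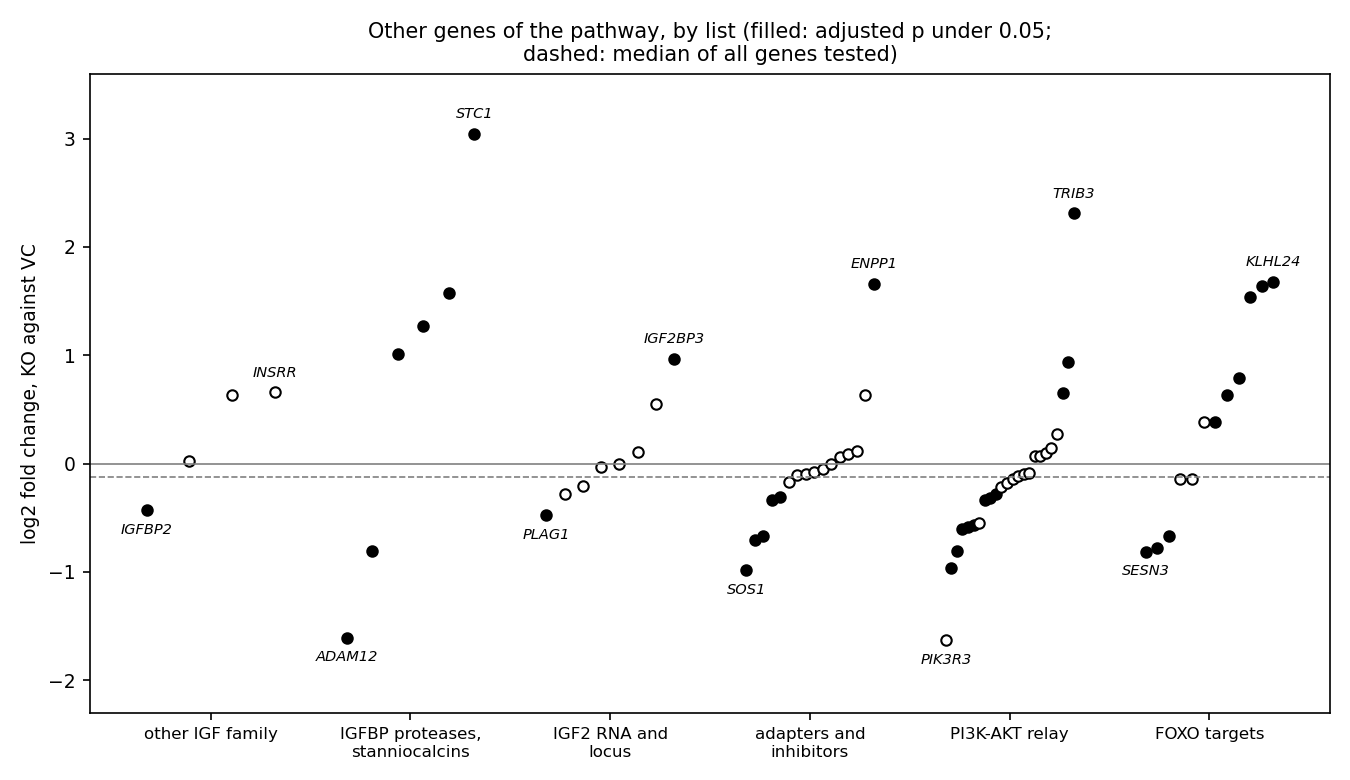
Log2 fold change of KO against VC for the 70 tested pathway genes, in 6 lists and ordered by value within each, with filled points for an adjusted p under 0.05, a dashed line at the median of all genes tested (-0.13), and the lowest and highest gene of each list named. All 6 points of the protease and stanniocalcin list are filled, with STC1 at 3.05 and ADAM12 at -1.61, and the open point at the bottom of the PI3K-AKT list is PIK3R3. The lists were chosen with earlier results of these data known.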

How the data were processed

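RNA of 3 VC and 3 KO libraries was sequenced by the authors, who deposited quantile-normalized log2 signals per gene symbol. Sequencing was on an Illumina NextSeq, with CLC Genomics and Partek named in the methods, while the submitters' processing notes name CASAVA, STAR, Partek and GRCh38.p13, without versions. The annotation and read counts are not given in the sources used here. Empty cells were kept as missing. Signals were taken as deposited and fitted with limma 3.58.1 (R 4.3.3), a step tested on simulated data first. The members and lists were chosen with earlier results of these data known. The genes named are the 10 members, CNTNAP4, genes overlapping the members, the 2 called genes with the largest change in each direction of each list, and the 3 genes most like the called member with the largest change. PIK3R3, PIK3R1, AKT1, GSK3B, TSC1, TSC2, PIK3CB, FOXO4, PIK3IP1, FBXO32, CITED2, CDKN1B, SESN1, STC2, PAPPA2, GRB2, PTPRF, PTPN1, IGF2BP1, IGF2BP2, IGFBP1, IGFBP7, INSRR, IGF1, INS, IRS4, IGFALS and H19 were named from the lists, and EPCAM and other markers from the marker lists, after their values were seen. Alternatives kept only the upper 50% by mean signal or only genes with 6 values, centred each library on its median, repeated the quantile step, used the log2(signal + 1) scale, let the moderation follow a trend with robust estimation or dropped it, blocked on replicate number, or left out each library.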

Additional observations from a re-analysis of the deposited data

How the results depend on the processing

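No IGF axis gene changed direction under any alternative fit. IGFBP7, a gene outside the 10, reversed in 3 leave-one-out fits, with a log2 fold change between -0.12 and 0.20. With 1 library left out, the number of genes called lay between 1223 and 8669 of all genes (654 to 2940 higher, 569 to 5729 lower), between 1 and 8 of the IGF axis genes (0 to 2 higher, 1 to 6 lower) and between 10 and 42 of the pathway genes (8 to 17 higher, 2 to 25 lower), and the largest number came without KO replicate 1. The IGF axis count was 1 without VC replicate 1, VC replicate 3 or KO replicate 3 and 2 without VC replicate 2. Without variance moderation 2442 genes were lower, 1 IGF axis gene was higher and 11 pathway genes were lower. Restricted to the upper 50% of mean signal, where fewer genes were tested, 25 pathway genes were called (9 higher, 16 lower). In that fit 59.1% of all genes were called. Same-numbered VC and KO libraries did not deviate together from their group means (r of 0.023, 0.0051 and -0.0074 over genes). The largest r of such deviations was 0.031, between VC replicate 2 and KO replicate 3, so the numbers were not read as pairs. With a replicate block 1533 genes were called (594 higher, 939 lower), 1 IGF axis gene (0 higher, 1 lower) and 9 pathway genes (7 higher, 2 lower). Median-centring moved the median log2 fold change of all genes from -0.13 to -0.04, and adding 1 to the linear signal moved it to -0.02. For the remaining moved counts the cause was not tested. The unknown read depth leaves counting error unmeasured.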
